A study of Mus musculus with 8 samples.

Results

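The repeat on proximal mouse chromosome 17 holds copies of 2 genes side by side. Its members were the 7 rows of the gene table named Tmem181a, Tmem181b-ps, Tmem181c-ps, Dynlt1a, Dynlt1b, Dynlt1c and Dynlt1f, of 18058 genes in all, and all 7 were present. They were picked because most of them had been seen to be higher in the knockout in an earlier look at the same libraries, so their own levels are given as a description and with no test. Total RNA came from retinae of adult mice, 4 libraries (A to D) per genotype. WT mice were 129S2/SvPasCrl, the inbred strain used as background, and the quadruple KO mice lacked the extracellular matrix genes Bcan (brevican), Ncan (neurocan), Tnc (tenascin-C) and Tnr (tenascin-R). The quadruple KO line was bred by crossing the single knockouts, and it was compared with mice of the inbred strain. Loss of the proteins therefore cannot be told apart from other DNA differences between the line and that strain. These may lie next to the targeted alleles or elsewhere, chromosome 17 included. Animals of both sexes were used per the methods, retinae were pooled for RNA extraction, and the ages of single animals are not given in the sources used here. No source says that each library came from separate animals, and the p-values therefore measure the spread between these libraries, which may be technical.

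Dynlt1 encodes Tctex-1, a light chain of cytoplasmic dynein, the motor that carries cargo towards the minus ends of microtubules. Tctex-1 was first described from the t-complex of chromosome 17 and sits on the dynein intermediate chains, where it takes part in the binding of cargo. Tmem181 encodes a membrane protein that crosses the bilayer several times. Humans have a single copy of each gene, while the mouse reference holds several, and the suffix "-ps" marks 2 Tmem181 copies as pseudogenes.

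On GRCm39 with GENCODE M39, the 7 genes span 616187 bases of chromosome 17, from 6307113 to 6923299. Tmem181a (ENSMUSG00000038141, plus strand, 6307113 to 6358591) and Dynlt1a (ENSMUSG00000092074, minus strand, 6356613 to 6367792) come first and overlap by 1979 bases on opposite strands. Dynlt1b (ENSMUSG00000096255, plus, 6697471 to 6703695) faces Tmem181b-ps (ENSMUSG00000096780, minus, 6708801 to 6757783), with 5105 bases between their 3′ ends. Dynlt1c (ENSMUSG00000000579, plus, 6869051 to 6879446) faces Tmem181c-ps (ENSMUSG00000093880, minus, 6881152 to 6907189) in the same way, 1705 bases apart. Dynlt1f (ENSMUSG00000095677, minus, 6914001 to 6923299) closes the block, 6811 bases beyond Tmem181c-ps. Between Dynlt1a and Dynlt1b the assembly has a gap of 166000 unread bases from 6464963 to 6630962, so the reference order and number of copies may be incomplete there.

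The coding sequences of the 4 Dynlt1 genes were almost the same. Dynlt1a, Dynlt1c and Dynlt1f had identical coding sequences of 339 bases over 5 exons, and Dynlt1b differed from them at 1 base, the substitution C21A counted from the first base of the start codon. It changed none of the 113 codons' residues. In the reference, the start of the coding sequence holds the only coding base that tells Dynlt1b from the other 3. Sequences of the mice used were not read, so their copies may differ from the reference in bases and in number. The first 60 bases are shown with that base in capitals (sense strand, 5′ to 3′, GRCm39):
Dynlt1a: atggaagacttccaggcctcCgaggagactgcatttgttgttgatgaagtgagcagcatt
Dynlt1b: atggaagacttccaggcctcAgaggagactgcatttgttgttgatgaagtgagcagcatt
Dynlt1c: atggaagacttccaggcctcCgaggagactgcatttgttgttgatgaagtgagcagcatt
Dynlt1f: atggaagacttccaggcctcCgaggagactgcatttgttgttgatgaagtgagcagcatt

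Upstream of the genes the copies fell into a different order. In 250 bases read from each gene after leaving out the 160 bases before the start codon, outside all annotated exons of the members, Dynlt1b, Dynlt1c and Dynlt1f were 97.2% to 98.8% identical, whereas Dynlt1a was 64.6% to 65.4% identical to them. The difference was in the far part of the window. Dynlt1a and Dynlt1b differed in 6 of the 130 aligned positions nearest to the genes and in 82 of the 124 positions farther away. The 2 windows are shown on the gene's strand, with capitals at the positions that vary among the 4 genes. That of Dynlt1a is chr17:6367836-6368085 (minus strand) and that of Dynlt1b is chr17:6697201-6697450 (plus strand), both on GRCm39.
Dynlt1a: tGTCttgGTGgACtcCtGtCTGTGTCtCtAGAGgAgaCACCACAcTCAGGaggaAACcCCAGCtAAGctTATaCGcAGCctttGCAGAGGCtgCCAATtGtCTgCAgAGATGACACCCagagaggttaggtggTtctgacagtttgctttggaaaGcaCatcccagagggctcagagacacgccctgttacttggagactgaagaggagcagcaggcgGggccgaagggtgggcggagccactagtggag
Dynlt1b: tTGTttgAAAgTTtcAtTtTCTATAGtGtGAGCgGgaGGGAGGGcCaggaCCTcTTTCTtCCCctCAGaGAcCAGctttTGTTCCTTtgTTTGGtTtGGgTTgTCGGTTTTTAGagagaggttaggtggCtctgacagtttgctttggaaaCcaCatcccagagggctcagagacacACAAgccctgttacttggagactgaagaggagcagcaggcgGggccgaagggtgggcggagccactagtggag

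The Tmem181 copies were also close to each other. The exons of Tmem181b-ps aligned to 1414 of the 1422 coding bases of Tmem181a with 9 differing bases, 2 of which were deleted bases, and those of Tmem181c-ps to 1338 bases with 9 differing bases and 5 inserted bases. The stretch of 120 coding bases in which the 3 copies varied most, coding positions 9 to 128 of Tmem181a, held just 3 varying positions. They are shown in capitals to give a sense of how few places separate these genes in the reference.
Tmem181a: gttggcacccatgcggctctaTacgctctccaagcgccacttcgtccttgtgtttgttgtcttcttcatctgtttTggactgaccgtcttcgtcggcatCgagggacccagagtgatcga
Tmem181b-ps: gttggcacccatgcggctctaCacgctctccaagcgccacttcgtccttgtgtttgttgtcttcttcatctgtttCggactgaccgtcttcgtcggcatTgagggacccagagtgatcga
Tmem181c-ps: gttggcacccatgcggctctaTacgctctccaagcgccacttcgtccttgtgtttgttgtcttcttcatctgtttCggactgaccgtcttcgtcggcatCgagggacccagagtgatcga

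How far reads can be assigned to one copy was measured on the reference transcripts. The measure was the share of words of a fixed length in a gene's annotated transcripts that occur in those of no other gene. Only the sense strand was compared, so any overlap of Tmem181a and Dynlt1a on opposite strands is not counted. The shares may differ in the mice used. For words of 31 bases it was 58.1% in Tmem181a, 26.8% in Dynlt1a, 23.1% in Dynlt1c, 20.8% in Dynlt1b, 15.3% in Tmem181c-ps, 6.52% in Dynlt1f and 1.92% in Tmem181b-ps. For words of 75 bases it was between 6.12% in Tmem181b-ps and 73.6% in Tmem181a. The last place of Tmem181b-ps rested on words shared with genes outside the members. Of its 31-base words 91.9% were shared with another member, against 93.2% of those of Dynlt1f. Genes outside the members shared 97.0% of its 31-base words. Gm64463, a gene of the newer annotation that is not in the table analysed here, lies over Tmem181b-ps on the same strand and shares 3580 of the 31-base words with the members. Salmon divides reads that match several transcripts between them by a model, so single values of the copies, above all of Tmem181b-ps and Dynlt1f, are uncertain. The sums over a family are less affected by the division between its copies, but they leave out genes outside the members. Those genes shared 17.9% to 28.5% of the 31-base words of the Dynlt1 copies, 41.4% in Tmem181a and 82.9% in Tmem181c-ps. Which of them were in the annotation used for counting is not known here.

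**Figure D1:**
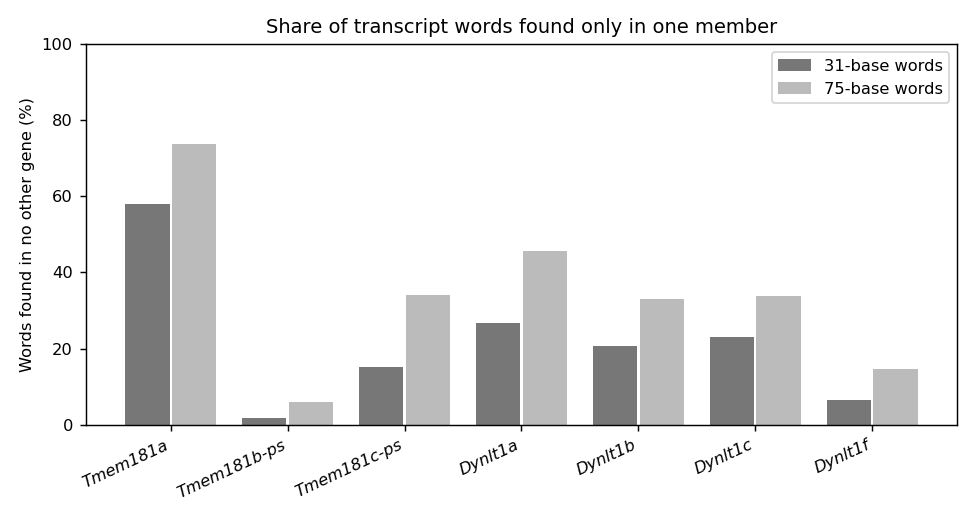
Share of each member's transcript words of 31 and of 75 bases (vertical axis, %) that occur in no other annotated gene, compared on the sense strand of the reference, for the 7 members (horizontal axis). Tmem181a has the highest share at both lengths, and Tmem181b-ps the lowest, with 1.92% for 31 bases. Genes outside the members are counted too, and the last place of Tmem181b-ps rests on them.

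The libraries matched the tissue label. The 4 rod markers Sag, Pde6a, Gnat1 and Nrl summed to 536721 to 647176 normalized counts in WT and 672956 to 723699 in the quadruple KO. The markers of the retinal pigment epithelium Rpe65 and Mlana, of oligodendrocytes Mog and of fibroblasts Lum were not in the table. The sums were 19687 to 23597 for cones, 30999 to 36119 for bipolar cells, 18913 to 25533 for amacrine cells, 19325 to 21197 in WT and 15524 to 18387 in the quadruple KO for ganglion cells, 102877 to 159969 for Mueller glia, 1208 to 3177 for the pigment epithelium, 8684 to 11915 for endothelial cells, 839 to 1572 for oligodendrocytes, 262 to 352 for microglia and 163 to 495.5 for fibroblasts and sclera. Lens markers ranged from 31.8 in KO B to 1659 in WT B. Normalized counts added up to 36134196 to 42201667 per library, and the table does not give the depth in reads. WT B and WT C stood apart, with mitochondrially encoded mRNAs at 0.402% and 0.341% of the total against 1.28% to 1.64% in the other 6 libraries. Values against WT A and WT D alone are given for the members, the flanking genes and the named dynein genes whose difference depended most on them. The targeted genes, which lie on chromosomes 1, 3, 4 and 8, bore out the labels for Ncan, at 569 to 789 normalized counts in WT and at most 0.853 in the quadruple KO, for Bcan, at 197 to 327 against 11.5 to 22.1, and for Tnr, at 5578 to 6317 against 2374 to 2580.3, while Tnc overlapped, with 881 to 1592 against 1024 to 1249. The paper reports that only a stretch within Tnc was lost, and it detected no Tnc protein in postnatal quadruple KO retinae. A count over the whole gene therefore cannot decide on the Tnc label.

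Over both families, the repeat gave more RNA in the quadruple KO retina. The sum of the 7 members was 5395 ± 609 normalized counts in WT against 12039 ± 358 in quadruple KO libraries (SD, n = 4 each), 2.23 times the WT level. In 6 of the 7 members the lowest quadruple KO library exceeded the highest WT library, and Dynlt1f was the exception. Of the 17636 genes tested, 6.16% had all 4 quadruple KO values above all 4 WT values, and 3.58% had them below. The members were selected on this contrast, so the count is a description. The summed rod markers also lay higher in all 4 quadruple KO libraries than in all 4 WT libraries, as given above. The summed ganglion cell markers lay lower in the same way. Among the single rod markers only Sag was apart, and Pde6a, Gnat1 and Nrl overlapped between genotypes. Among the single ganglion cell markers Rbpms, Sncg and Nefl were lower without overlap, and Pou4f1 overlapped. The part of these differences in the members' levels was not tested. In bulk tissue, more cells that express a gene and more RNA per cell cannot be told apart.

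**Figure D2:**
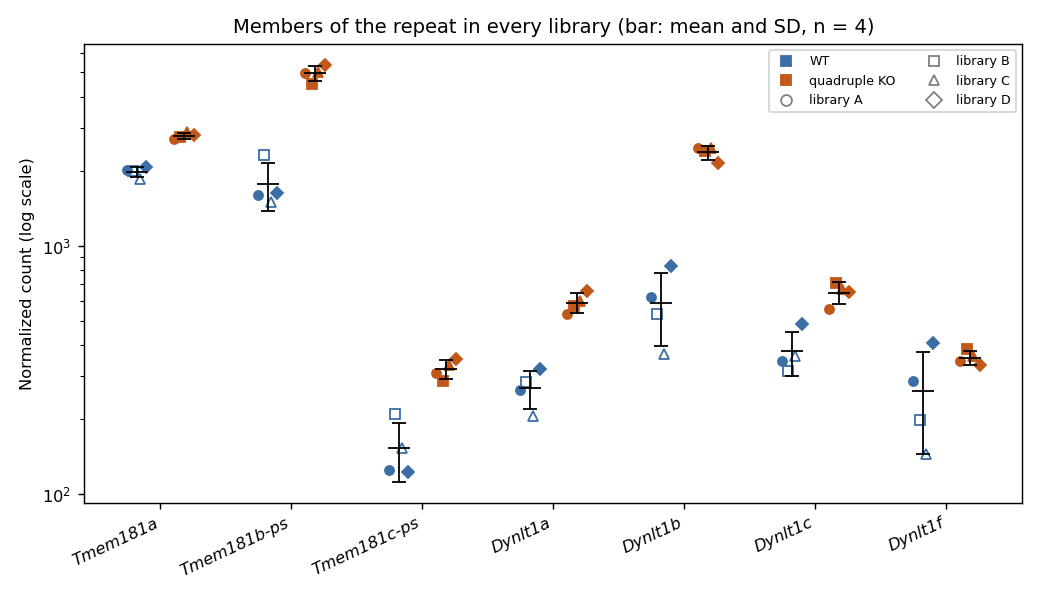
Normalized count (log scale) of each member in the 4 WT (blue) and 4 quadruple KO (orange) libraries, with mean and SD in black; symbols give the library letter, and WT B and WT C are hollow. The genotypes are apart in 6 members and overlap in Dynlt1f, where WT D has 406 normalized counts and the highest quadruple KO library has 384.

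Dynlt1b, 1 of 4 copies that code for the same light chain, differed most. It had 622 normalized counts in WT A, 529 in WT B, 366 in WT C and 827 in WT D, and 2474 in KO A, 2409 in KO B, 2491 in KO C and 2152 in KO D. The lowest quadruple KO library thus lay 1325 normalized counts above the highest WT library, and the mean was 4.06 times that of WT (586 ± 192 against 2381 ± 157, SD, n = 4 each). On the log2(normalized count + 1) scale the difference was 2.08, with a standard error (SE) of 0.25. For the members and sums the SE came from the spread of the 4 libraries per genotype alone. The SEs given in the text for flanking and dynein genes came from the limma fit, so the 2 kinds are not alike. Against WT A and WT D alone the ratio was 3.29.

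Dynlt1a, which overlaps Tmem181a on the opposite strand, had 263, 284, 206 and 318 normalized counts in WT A to D and 529, 570.2, 600.3 and 659.6 in KO A to D. The groups were apart, with a ratio of means of 2.20 and a log2 fold change of 1.15 (SE 0.15), and against WT A and WT D alone the ratio was 2.03. Dynlt1c had 345, 313, 359.8 and 485 in WT A to D and 557, 712, 669 and 649.5 in KO A to D. The groups did not overlap, with a ratio of 1.72 and a log2 fold change of 0.80 (SE 0.16), the smallest of the 3 Dynlt1 copies that were apart, and a ratio of 1.56 against WT A and WT D alone.

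Dynlt1f showed the widest WT spread of the 7 members relative to its mean, with a coefficient of variation of 44.0%. It had 286 normalized counts in WT A, 199 in WT B, 145 in WT C and 406 in WT D, against 343, 384, 358 and 332 in KO A to D. WT D lay above all 4 quadruple KO libraries, and WT B and WT C lay far below them. The ratio of means was 1.37 over all WT libraries and 1.02 against WT A and WT D alone, so the difference in Dynlt1f rested on WT B and WT C.

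The Dynlt1 sum, which depends less on how reads were divided between the 4 copies, was 1516 in WT A, 1325 in WT B, 1076 in WT C and 2036 in WT D, and 3903, 4075, 4118 and 3793 in KO A to D. The mean was 1488 ± 407 in WT against 3972 ± 152 in quadruple KO libraries (SD, n = 4 each), a ratio of 2.67 and a log2 fold change of 1.45 (SE 0.19). WT C and WT B had the lowest sums, and against WT A and WT D alone the ratio was 2.24. Dynlt1b made up 72.3% of the difference in the sum, Dynlt1a 13.0%, Dynlt1c 10.9% and Dynlt1f 3.84%.

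The members of the Tmem181 family followed the same direction. Tmem181a, the copy annotated as coding, had 2017, 1995, 1859 and 2070.4 normalized counts in WT A to D and 2701, 2749.6, 2883 and 2805 in KO A to D. Its ratio of means was 1.40 (log2 fold change 0.49, SE 0.04), or 1.36 against WT A and WT D alone, the smallest ratio among the Tmem181 copies, and its WT coefficient of variation of 4.53% was the lowest of the 7 members. Tmem181b-ps had 1602, 2332, 1499 and 1639.6 in WT A to D and 4969.7, 4498, 5018 and 5368 in KO A to D. Its ratio was 2.81, or 3.06 against WT A and WT D alone, and its log2 fold change was 1.51 (SE 0.15). WT B was the highest WT library, yet the lowest quadruple KO library lay clear of it. Tmem181c-ps had 125, 210.1, 153 and 122 in WT A to D and 307, 284, 331 and 351 in KO A to D. The groups were apart, with a ratio of 2.09, or 2.57 against WT A and WT D alone, and a log2 fold change of 1.09 (SE 0.19).

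The Tmem181 sum was 3745, 4538, 3511 and 3832 in WT A to D and 7978, 7532, 8231 and 8524 in KO A to D. The mean was 3906 ± 442 in WT against 8066 ± 420.4 in quadruple KO libraries (SD, n = 4 each), a ratio of 2.06 and a log2 fold change of 1.05 (SE 0.09). Unlike the Dynlt1 sum it was not lowest in both WT B and WT C, and the ratio against WT A and WT D alone was 2.13. Tmem181b-ps made up 76.8% of the difference, Tmem181a 19.2% and Tmem181c-ps 3.99%.

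**Figure D3:**
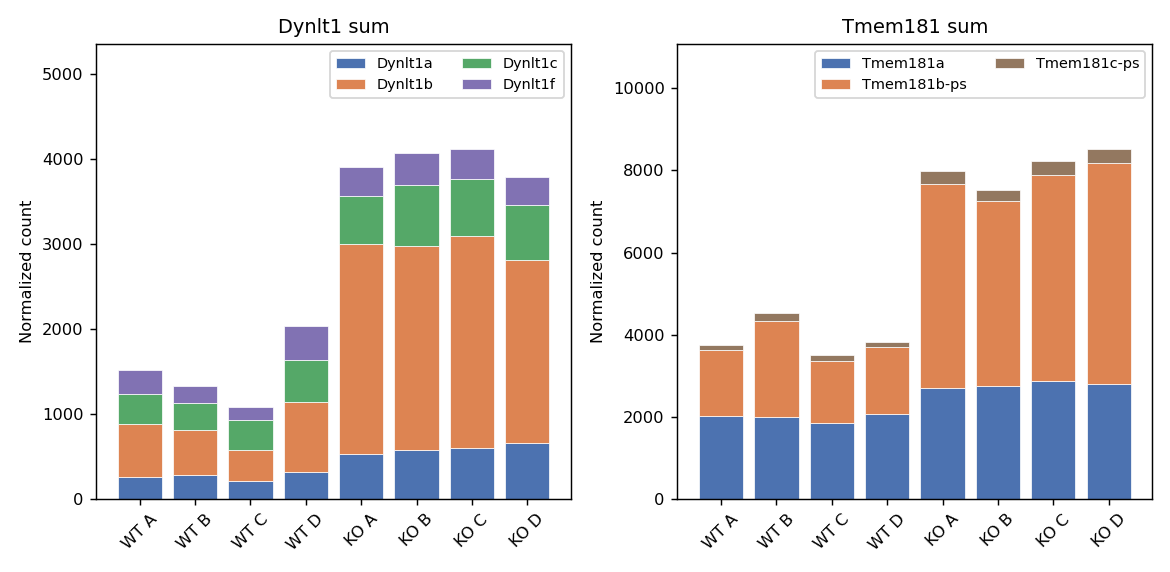
Normalized counts of the Dynlt1 (left) and Tmem181 (right) copies, stacked, in each of the 8 libraries. Every quadruple KO stack is taller than every WT stack, and the layers of Dynlt1b and Tmem181b-ps account for most of the added height.

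The estimated proportions of the copies were not the same in both genotypes. They rest on how Salmon divided reads between near-identical copies, and the part of that division in the differences was not tested. Dynlt1b made up 38.9% ± 3.32 of the Dynlt1 sum in WT against 59.9% ± 2.77 in quadruple KO libraries, while Dynlt1c went from 25.9% ± 5.03 to 16.3% ± 1.43 and Dynlt1f from 16.8% ± 3.08 to 8.92% ± 0.338 (SD, n = 4 each). For these 3 the shares did not overlap between genotypes. The share of Dynlt1a overlapped, with 15.6% to 21.4% in WT and 13.6% to 17.4% in the quadruple KO. Tmem181b-ps made up 44.9% ± 4.32 of the Tmem181 sum in WT against 61.5% ± 1.45 in quadruple KO libraries, and Tmem181a 51.2% ± 4.84 and 34.6% ± 1.55 (SD, n = 4 each), both without overlap. Tmem181c-ps stayed between 3.19% and 4.63% in all 8 libraries. Within a library, Dynlt1b had 1.77 to 2.60 times the normalized count of Dynlt1a in WT, not corrected for length, against 3.26 to 4.67 times in quadruple KO libraries. The 2 members with the largest ratios, Dynlt1b and Tmem181b-ps, are neighbours that face each other beyond the assembly gap.

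**Figure D4:**
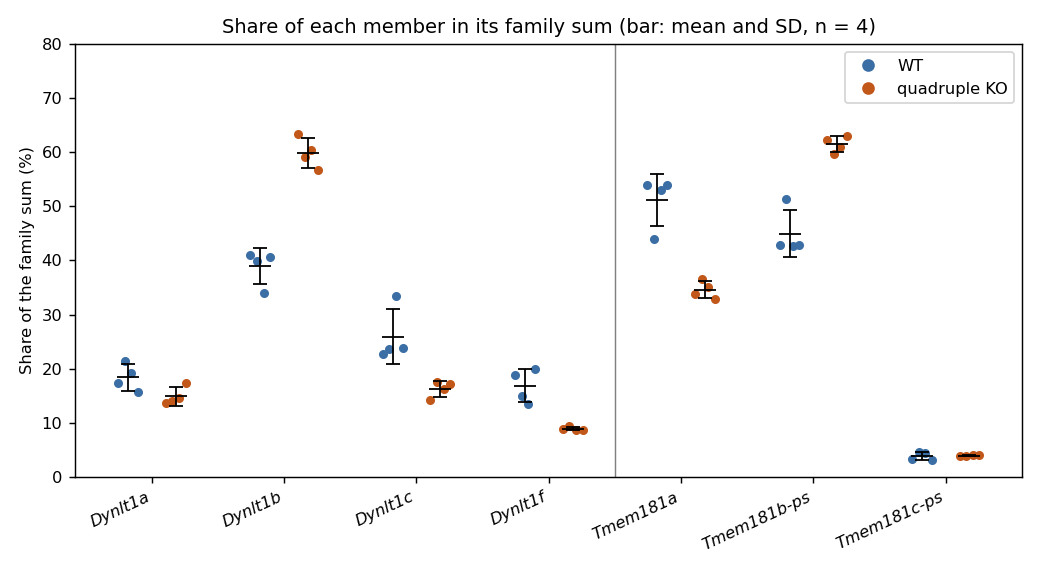
Share of each member in its family sum (vertical axis, %), as 4 points per genotype with mean and SD, with the Dynlt1 copies left of the line and the Tmem181 copies right of it. Dynlt1b and Tmem181b-ps take a larger share in the quadruple KO (59.9% and 61.5%) than in WT (38.9% and 44.9%). The shares rest on the division of reads between copies by Salmon.

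Levels of the copies were compared per kb of annotated exons. In WT, Tmem181b-ps had 1145 ± 246 normalized counts per kb, Dynlt1b 630.03 ± 207, Tmem181a 259.8 ± 11.8, Tmem181c-ps 110.1 ± 29.4, Dynlt1c 79.9 ± 16.1, Dynlt1f 71.4 ± 31.4 and Dynlt1a 58.1 ± 10.2 (SD, n = 4 each). From Tmem181c-ps downwards, neighbours in this order lay within their spread of each other. In the quadruple KO the order began with Tmem181b-ps at 3215 ± 232 and Dynlt1b at 2561 ± 169, and Tmem181a at 364 ± 10.2 came next. Dynlt1a at 128 ± 11.9 then stood above Dynlt1f at 97.7 ± 6.21. By the longest transcript in place of all exons, Dynlt1a already stood above Dynlt1f in WT, at 75.6 ± 13.2 against 73.0 ± 32.2. Dynlt1c likewise stood above Tmem181c-ps in WT, at 115.6 ± 23.2 against 110.1 ± 29.4. The annotated exons add up to 1544 bases for Tmem181b-ps and 930 for Dynlt1b, against 7643 for Tmem181a and 3627 to 4702 for the other Dynlt1 genes, so the order depends on how complete these models are.

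Relative to the mean, the spread within WT was larger than within the quadruple KO in each of the 7 members. The coefficient of variation (SD over mean) was 4.53% to 44.0% in WT and 2.79% to 10.1% in the quadruple KO. Over all genes tested the median was 18.3% in WT and 7.26% in the quadruple KO. In Dynlt1b and Dynlt1f WT B and WT C were the 2 lowest WT libraries, with means of 447 and 172 against 724 and 346 in WT A and WT D, whereas in Tmem181c-ps they were the 2 highest, at 153 and 210.1 against 122 and 125. These libraries also differed in mitochondrial mRNAs as given above, and the part of that difference in the members' spread was not tested.

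The genes around the repeat were the next question, since they share the chromosome region and were not used to choose the members. Of the 15 genes tested within 1 Mb of the block or inside it, none was called by limma at an adjusted p under 0.05, and 3 had an unadjusted p under 0.05, compared with 77 genes called (0.437%) and 2922 with an unadjusted p under 0.05 among all 17636. Their log2 fold changes had a median of -0.17, compared with -0.00018 over all genes, and 10 of 15 were below 0. None of them had all 4 quadruple KO values above all 4 WT values, and 1 had them below. Among all genes tested these shares were 6.16% and 3.58%, so few such genes would be looked for among 15.

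The nearest genes on both sides differed by less than the spread between libraries. Tulp4, a Tubby-like protein gene 5710 bases before Tmem181a, had 15374 ± 2229 normalized counts in WT against 16118 ± 783 in quadruple KO libraries (log2 fold change 0.08, SE 0.10, limma adjusted p = 0.658). Sytl3, a synaptotagmin-like gene 3193 bases beyond Dynlt1f, was low, with 13.7 ± 6.16 and 14.1 ± 5.24 (log2 fold change 0.07, SE 0.43, limma adjusted p = 0.93). Gm2792, which lies inside the block next to the gap, had 100.03 normalized counts in WT B and at most 8.97 in each of the other 7 libraries.

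On the centromeric side, Gtf2h5, a subunit of transcription factor IIH, had a log2 fold change of -0.07 (SE 0.08), and Serac1 of 0.13 (SE 0.15). The other 4 were Synj2 with -0.30, Snx9 with -0.25, Zdhhc14, a palmitoyltransferase gene, with -0.17 and Tmem242 with -0.52. Synj2, a phosphoinositide phosphatase gene, was the 1 gene whose quadruple KO libraries all lay below the WT libraries, with 1167 ± 31.3 against 1458 ± 272 normalized counts (SD, n = 4 each), and it was not called (limma adjusted p = 0.301). On the telomeric side, Ezr, the gene of the membrane linker ezrin, had -0.21 (SE 0.13), Rsph3b -0.07 (SE 0.07), Tagap1 0.25 (SE 0.13), Rnaset2b 0.51 (SE 0.26), Gm49721 -0.63 (SE 0.36) and Rps6ka2, a ribosomal S6 kinase gene, -0.43 (SE 0.18). Against WT A and WT D alone several of these differences were smaller, with -0.08 for Tmem242, -0.09 for Synj2, -0.020 for Zdhhc14, -0.07 for Rps6ka2, 0.06 for Tagap1, 0.05 for Rnaset2b and -0.03 for Rsph3b, and Snx9, Serac1, Gtf2h5 and Tulp4 turned sign. Those of Ezr and Gm49721 were larger, at -0.31 and -0.84. Sytl3 had 0.54 and Gm2792 had -0.89, in place of 0.07 and -1.22 over all libraries. The adjusted p of the 15 genes ran from limma adjusted p = 0.301 to limma adjusted p = 0.93. The nearest called gene on the chromosome that is no member was Btbd9, 23511199 bases away (log2 fold change -0.71, limma adjusted p = 0.0092).

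**Figure D5:**
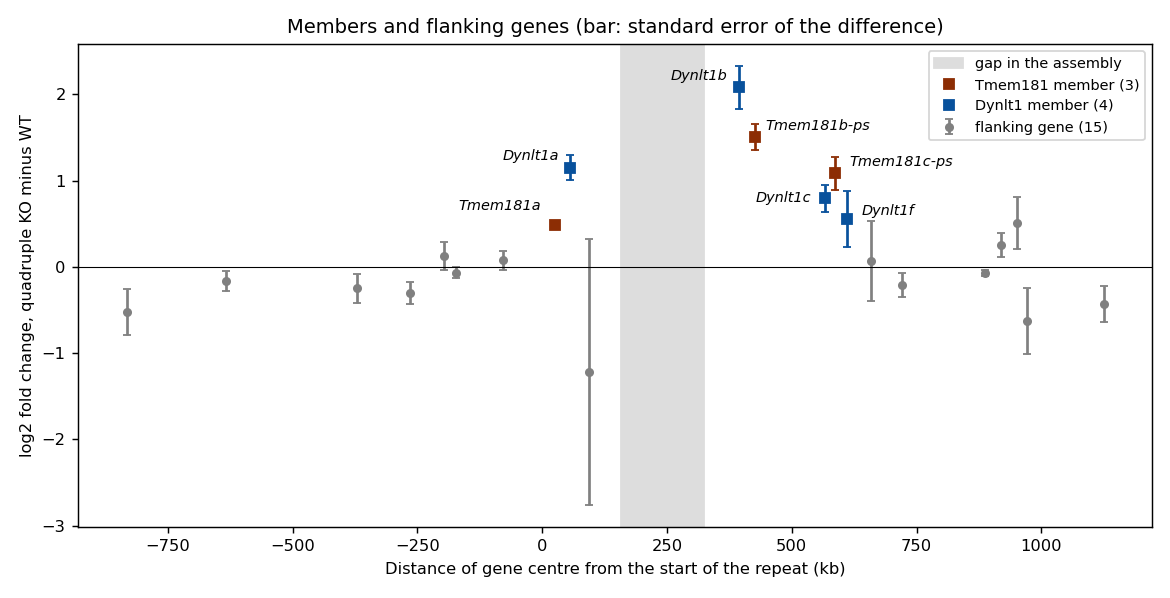
Log2 fold change, quadruple KO minus WT (vertical axis), for the members (squares) and the 15 flanking genes (grey) by the distance of the gene's centre from the start of the repeat in kb, with standard errors from the spread of the 4 libraries per genotype. For the flanking genes these differ from the limma SEs in the text. All 7 members lie above 0, from 0.49 (Tmem181a) to 2.08 (Dynlt1b), and the flanking genes lie between -1.22 and 0.51.

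The dynein machinery in which Tctex-1 works was read from fixed lists of 57 genes, of which 53 were tested. None of them was called by limma, compared with 0.261% called higher and 0.176% called lower among all genes. An unadjusted p under 0.05 was found in 10 of the 53, compared with 2922 of all 17636 genes. All quadruple KO values lay above all WT values in 5 of the 53, Dctn5 included, and below them in 1. Among all genes these shares were 6.16% and 3.58%. The median log2 fold change of the 53 was 0.01, with 27 above 0 and 26 below. By list, the medians were 0.01 for the 10 subunits of cytoplasmic dynein 1, 0.27 for the 3 other Tctex type light chains tested, -0.06 for the 4 genes of dynein 2, 0.04 for the 12 dynactin genes, 0.06 for the 11 adaptors and regulators, -0.0043 for the 9 genes of vesicle transport and -0.04 for the 4 binding partners of Tctex-1.

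The genes with the largest differences in the lists were Rab8a, a small GTPase of vesicle transport, Dctn5, a dynactin subunit, and Dynlrb1, a roadblock type dynein light chain. Rab8a had 953, 521, 638 and 1262 normalized counts in WT A to D and 1235 to 1338 in the quadruple KO (log2 fold change 0.67, SE 0.24, limma adjusted p = 0.301). Dctn5 had 1290.2, 709, 738 and 1484 in WT A to D and 1494 to 1650.3 in the quadruple KO (log2 fold change 0.64, SE 0.23, limma adjusted p = 0.301). Dynlrb1 had 1442, 855, 834 and 1696 in WT A to D and 1581 to 1798 in the quadruple KO (log2 fold change 0.55, SE 0.22, limma adjusted p = 0.301). All 3 were lowest in WT B and WT C, as the Dynlt1 sum was, and against WT A and WT D alone the log2 fold changes were 0.21 for Rab8a, 0.17 for Dctn5 and 0.11 for Dynlrb1. The highest normalized counts in the lists were those of the dynein heavy chain gene Dync1h1, with a log2 fold change of -0.17 (SE 0.07), of Dctn1, the p150 subunit of dynactin, with -0.17 (SE 0.11), and of the adaptor gene Bicdl1 with -0.31 (SE 0.18). Per kb of exons the light chain gene Dynll2, with -0.37 (SE 0.17), took the place of Bicdl1. Against WT A and WT D alone Dynll2 had -0.033, and Bicdl1 and Dctn1 turned sign (0.069 and 0.031). Dync1h1 had 43651 ± 2159 normalized counts in WT against 38751 ± 1570 in quadruple KO libraries (SD, n = 4 each), without overlap (limma adjusted p = 0.301).

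The genes whose pattern over the 8 libraries was most like that of the sums are given by Pearson's r of the log2 values, as a description. The genotype difference sets most of each r, and all points share the same libraries. For the Dynlt1 sum the highest were Zeb1 (r = 0.99), Fam135a (r = 0.99), Tctn3 (r = 0.98), Armc8 (r = 0.98) and Arhgap12 (r = 0.98), and the most negative of those reported here Mafg (r = -0.99), Stard4 (r = -0.99), Esco1 (r = -0.99) and Hmox2 (r = -0.98). Of these, Fam135a (log2 fold change 1.33), Armc8 (0.82), Stard4 (-0.87), Esco1 (-0.45) and Hmox2 (-2.75) were called by limma. For the Tmem181 sum the highest were Gm14305 (r = 0.99), Gm4631 (r = 0.99), Pccb (r = 0.99), Gm14416 (r = 0.98) and Gm2004 (r = 0.98), and the most negative Pkp2 (r = -0.99), Bnip3 (r = -0.98), Gm49968 (r = -0.98), Slc5a8 (r = -0.98) and the targeted gene Tnr (r = -0.98). All 10 of the latter set were called. Gm14305, Gm4631, Gm14416 and Gm2004 lie together on chromosome 2, and none of the genes named here for their r lies on chromosome 17.

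Among the members themselves, r over the 8 libraries ran from 0.32 for Tmem181c-ps and Dynlt1f to 0.987 for Tmem181a and Dynlt1a, which overlap. Tmem181a and Dynlt1b, which do not overlap, had nearly the same r of 0.985. Dynlt1b and Dynlt1f had an r of 0.78. The genotype difference, on which the members were selected, sets much of these values. Within the 4 WT libraries alone r ran from -0.70 for Tmem181c-ps and Dynlt1c to 0.99 for Dynlt1b and Dynlt1f.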

How the data were processed

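Total RNA of 4 WT and 4 quadruple KO retina samples had been prepared from 450 ng with a directional kit and sequenced. The authors trimmed reads with Trim Galore 0.6.7, aligned them with STAR 2.7.9a to GRCm39 and counted genes with Salmon 1.5.2 (nf-core/rnaseq), and they deposited normalized counts per library from DESeq2 1.32.0. Whether the counting used strand, and the annotation release, are not given in the sources used here. Their columns of fold changes and p-values were not used.

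The test took the 17636 genes whose mean normalized count reached 10 and was run on log2(normalized count + 1) with limma 3.58.1 in R 4.3.3 (lmFit, eBayes with trend, no covariate), with Benjamini-Hochberg adjustment over all of them and a call at an adjusted p under 0.05. Fold changes on this scale understate those of low genes. The fit was tested on simulated data. Positions and lengths came from GENCODE M39 (17969 IDs matched), and sequences from GRCm39. Tables were made with Python 3.11.15, pandas 2.3.3 and numpy 2.4.6. Named were the members, all tested flanking genes, the dynein genes called, with the 3 largest changes or 3 highest levels, and the 5 genes at each end of the likeness order. Some genes of the lists and of this order are not reported here, and those of the lists entered no count. The members and lists were chosen with earlier results of these data known. Alternatives were other normalizations, filters, pseudocounts, weights, a replicate block and libraries left out.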

Additional observations from a re-analysis of the deposited data

Results flagged for a closer look

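Of 64 groups of 4 libraries, in the members, their sums and the named flanking and dynein genes, 3 had a library set apart from the other 3 by Dixon's ratio of the gap to the range, and chance sets about 1 in 20 groups apart. In Tmem181b-ps, WT B was the highest WT library with 2332 normalized counts, against 1499 to 1639.6 in the others (ratio 0.832). In Gm2792, inside the block, WT B had 100.03 against 0 to 8.97 (ratio 0.91). In Snx9, KO D was the lowest quadruple KO library with 523, against 577 to 581 (ratio 0.936).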

How the results depend on the processing

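The direction of all 7 members and both sums held under the alternatives run for them, which were 2 other normalizations, 2 other pseudocounts, each library left out and WT limited to WT A and WT D. The Dynlt1 sum had a log2 fold change of 1.45, and 1.18 when WT was limited to WT A and WT D. Dynlt1f went from 0.55 to 0.054 under the same choice. Leaving out 1 library gave 1.31 to 1.62 for the Dynlt1 sum and 1.002 to 1.13 for the Tmem181 sum, and among single members 1.87 to 2.27 for Dynlt1b and 0.31 to 0.81 for Dynlt1f. Leaving out 1 library gave 56 to 89 called genes in place of 77, array weights gave 143 and the replicate block gave 51. The letters A to D did not pair the libraries, with correlations of residuals between -0.109 and 0.098, and the block called no flanking or dynein gene. No alternative called any flanking or dynein gene, while leaving out 1 library moved the number with an unadjusted p under 0.05 from 3 to between 0 and 7 (without WT D) for flanking genes, and from 10 to between 4 (without KO C) and 26 (without WT D) for dynein genes. By the longest transcript, the WT level per kb was 350.2 for Tmem181a, 75.6 for Dynlt1a and 115.6 for Dynlt1c.

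The sign of differences in named genes that were not called turned in 19 cases, the largest of them that of Gm2792, with -1.22 over all libraries. When WT was limited to WT A and WT D, the log2 fold changes were 0.02 for Snx9, -0.11 for Serac1, 0.016 for Gtf2h5, -0.10 for Tulp4, 0.031 for Dctn1, 0.069 for Bicdl1 and 0.25 for Tnc. With array weights they were -0.028 for Serac1, 0.021 for Gtf2h5, -0.060 for Tulp4, 0.028 for Bicdl1 and 0.13 for Tnc. Leaving out 1 library gave -0.0055 to 0.23 for Serac1, -2.22 to 0.0014 for Gm2792, -0.24 to 0.38 for Sytl3 and -0.23 to 0.052 for Tnc, the turns being without WT B for Serac1, Gm2792 and Tnc, without WT C for Tnc, and without WT A, KO C or KO D for Sytl3. The cause was not tested. A count model was not run because the table holds no whole reads. Depth in reads is not known, and reads shared between near-identical copies limit the values of single members.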
